A study of Mus musculus with 9 samples.

Results

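The endoplasmic reticulum (ER) secretory pathway and its stress response were followed through tumour formation in the mouse submandibular salivary gland. The group comprised 44 genes, taken as the probes that the platform annotation assigns to one of the 44 listed symbols. Of these, 42 genes had a named probe (75 probes in all) and 40 passed the filter on low signal, out of 12423 genes tested on the arrays. Dnajb11 and Sec23b had no named probe and were not analysed here, and Canx and Derl1 lay below background on more arrays than the filter allowed. Of the 40 tested genes, 36 were above background on all 9 arrays.

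Gene expression had been measured on 9 Illumina arrays from submandibular glands of Smgb-Tag mice. The labels assign 3 arrays to normal glands, 3 to dysplastic glands and 3 to adenocarcinomas. Every group carried the Smgb-Tag genotype, so the normal glands are transgenic glands without a tumour stage and not wild-type glands. The genotype's name refers to the SV40 large T antigen, which inactivates RB and p53, and to Smgb, a gene of salivary secretory cells. The labels give neither age nor sex, and they do not say whether the arrays of a group came from separate animals. The p-values below therefore measure the spread between these arrays, which may be technical.

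Secretory proteins enter the ER through the Sec61 translocon, lose their signal peptide to signal peptidase, and fold with the help of chaperones and disulfide isomerases. Proteins that fail to fold are returned to the cytosol and destroyed by ER-associated degradation, and folded cargo leaves in COPII vesicles. When unfolded proteins accumulate, the sensors encoded by Ern1 (IRE1) and Atf6, together with PERK, raise the transcription of much of this machinery in what is called the unfolded protein response. Salivary acinar cells, granular duct cells and plasma cells are professional secretory cells and are known for a high content of these gene products.

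The promoters of the group are shown as a description of its sequences. Its genes were listed for their part in the ER and its stress response, and most elements searched are named for that response. A high share of genes with such an element is therefore not independent of how the genes were chosen. RefSeq promoter windows of the GRCm38.p6 assembly, 250 bases before to 50 bases after the annotated start, were found for 36 of the 44 genes, in 38 windows. Windows were searched on both strands for the ER stress response element ERSE (CCAAT and CCACG, 9 bases apart), for ERSE-II (ATTGG and CCACG, 1 base apart), for the XBP1 element UPRE (TGACGTGG) and for the amino acid response element AARE (TGATGCAAT). UPRE overlaps the other elements in part, since its reverse complement begins with the CCACG that ends ERSE and ERSE-II. ERSE was found in 9 of the 36 genes (Calr, Canx, Creld2, Derl3, Dnajc3, Hsp90b1, Hspa5, Pdia6 and Syvn1), a share of 25.0%, against 0.137% of all 27025 genes with a window. ERSE-II was found in Dnajb11 and Herpud1 (5.56% of the group, against 0.0444% of all genes), and UPRE in Kdelr3 and Sec24d (5.56%, against 0.714%). AARE was found in 0 of the 36 genes, against 0.222% of all genes. Each match describes letters in a window and does not show that a factor binds there. The sequences of 7 genes are given 5′ to 3′ on the coding strand, with the fixed letters of each match in capitals. The first 5 belong to genes that fell in both tumour stages when 1 normal array was left out (below), and the last 2 to genes that also hold ERSE and had no call.
Sec24d: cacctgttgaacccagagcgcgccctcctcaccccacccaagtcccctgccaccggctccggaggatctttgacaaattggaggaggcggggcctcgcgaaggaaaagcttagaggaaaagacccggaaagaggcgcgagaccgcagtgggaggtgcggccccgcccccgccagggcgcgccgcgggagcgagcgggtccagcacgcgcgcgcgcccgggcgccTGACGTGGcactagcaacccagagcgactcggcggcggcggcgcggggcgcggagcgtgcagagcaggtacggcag
Kdelr3: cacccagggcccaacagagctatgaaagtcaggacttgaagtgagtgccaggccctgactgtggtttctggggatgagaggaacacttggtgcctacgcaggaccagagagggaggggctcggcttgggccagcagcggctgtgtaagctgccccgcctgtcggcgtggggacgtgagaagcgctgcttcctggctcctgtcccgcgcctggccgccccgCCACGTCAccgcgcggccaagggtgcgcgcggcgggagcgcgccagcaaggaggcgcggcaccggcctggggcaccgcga
Herpud1: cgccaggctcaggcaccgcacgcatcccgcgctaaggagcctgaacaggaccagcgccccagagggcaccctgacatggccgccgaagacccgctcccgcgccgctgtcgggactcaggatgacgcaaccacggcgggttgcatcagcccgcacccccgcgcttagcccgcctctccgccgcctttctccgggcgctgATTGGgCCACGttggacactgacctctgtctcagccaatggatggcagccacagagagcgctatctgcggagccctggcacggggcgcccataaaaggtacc
Derl3: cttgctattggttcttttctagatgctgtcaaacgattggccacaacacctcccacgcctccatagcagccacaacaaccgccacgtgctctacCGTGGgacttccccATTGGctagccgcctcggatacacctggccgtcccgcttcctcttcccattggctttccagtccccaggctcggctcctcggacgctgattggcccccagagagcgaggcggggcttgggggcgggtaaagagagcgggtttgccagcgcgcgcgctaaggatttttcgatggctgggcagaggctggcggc
Hspa5: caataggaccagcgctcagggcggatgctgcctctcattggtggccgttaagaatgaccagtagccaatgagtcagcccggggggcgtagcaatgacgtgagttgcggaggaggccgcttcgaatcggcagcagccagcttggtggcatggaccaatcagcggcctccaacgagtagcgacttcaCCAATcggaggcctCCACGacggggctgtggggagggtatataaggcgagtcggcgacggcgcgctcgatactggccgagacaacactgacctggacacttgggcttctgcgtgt
Hsp90b1: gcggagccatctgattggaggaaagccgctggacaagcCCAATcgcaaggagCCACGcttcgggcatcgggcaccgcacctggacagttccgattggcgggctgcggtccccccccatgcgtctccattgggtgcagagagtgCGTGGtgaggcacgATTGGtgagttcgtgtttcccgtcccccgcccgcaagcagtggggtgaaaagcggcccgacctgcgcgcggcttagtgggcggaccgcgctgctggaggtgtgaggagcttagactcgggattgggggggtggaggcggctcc
Calr: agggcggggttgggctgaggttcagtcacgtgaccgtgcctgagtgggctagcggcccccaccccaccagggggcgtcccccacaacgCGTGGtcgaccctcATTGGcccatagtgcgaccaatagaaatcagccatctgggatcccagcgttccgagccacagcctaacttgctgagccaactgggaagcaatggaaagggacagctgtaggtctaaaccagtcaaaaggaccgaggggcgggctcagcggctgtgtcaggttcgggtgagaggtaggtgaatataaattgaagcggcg

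The windows lie at chr3:123267246-123267545 (Sec24d, plus strand), chr15:79516158-79516457 (Kdelr3, plus strand), chr8:94386179-94386478 (Herpud1, plus strand) and chr10:75893148-75893447 (Derl3, plus strand). Those of Hspa5, Hsp90b1 and Calr lie at chr2:34771840-34772139 (plus strand), chr10:86705395-86705694 (minus strand) and chr8:84846882-84847181 (minus strand). The Sec24d match starts 26 bases before the annotated start and that of Kdelr3, on the opposite strand, 30 bases before it. The Herpud1 match starts 52 bases before the start, and the ERSE of Hspa5 65 bases before it. Hsp90b1 held 2 ERSE matches, at 212 and 107 bases before the start, 1 on each strand.

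Before any comparison, 1 array stood apart from its label. Over the 12423 tested genes normal 1 and normal 2 correlated at r = 0.992, whereas normal 3 correlated with them at 0.864 and 0.873. Normal 3 correlated at 0.968 with dysplasia 2 and at 0.971 with adenocarcinoma 2. Among the 40 ER genes, 0 differed by 2-fold or more between normal 1 and normal 2, while 12 and 13 differed by that much between each of them and normal 3. Normal 3 read lower than both other normal arrays for 36 of the 40 genes (90.0%, against 43.5% of all genes tested), with a median difference of -0.57 on the log2 scale from the mean of normal 1 and normal 2. For 29 of the 40 genes (72.5%, against 74.4% of all genes) normal 3 lay within the range of the 6 dysplasia and adenocarcinoma arrays. The comparisons with normal glands are therefore given with all 9 arrays and without normal 3. Without it the normal group rests on 2 arrays that are nearly alike, so the spread within that group is small. Normal 3 was set apart with the values of these same ER genes seen. The lower calls without normal 3 therefore follow in part from that choice.

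The tissue label was checked against defining markers, using 13 tested genes of acinar cells and 7 of the granular convoluted tubule. Median log2 intensity of the acinar genes was 15.25, 15.20 and 13.73 on the normal arrays, 10.11, 9.91 and 10.30 on the dysplasia arrays and 14.75, 11.77 and 12.91 on the adenocarcinoma arrays. Salivary markers were thus above the background level of 6.37 on every array by this median, and highest on normal 1 and normal 2. Of the 13 genes, 10 were above background on every array, and Tff2, Lpo and Cst10 were below it on at least 1. The acinar list shares 1 gene, Bhlha15, with the wider list of ER pathway genes described below.

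On all 9 arrays, 0 of the 40 ER genes passed an adjusted p of 0.05 in limma in dysplasia or adenocarcinoma against normal glands, as did 0.0% of all genes tested in either direction. At an unadjusted p under 0.05, 6 genes were lower in dysplasia than in normal glands (Derl3, Sec61a1, Sec24d, Sar1b, Kdelr3 and Rab3d), against 10.3% of all genes, and 0 were higher, against 12.2%. In adenocarcinoma against normal glands 8 were lower at that level (Hspa5, P4hb, Edem1, Sec61a1, Sec24d, Sar1b, Kdelr3 and Rab3d), against 7.81% of all genes, and 0 were higher, against 8.15%. The median log2 fold change of the 40 genes was -0.19 in dysplasia and -0.36 in adenocarcinoma, each against normal, where the medians of all genes were 0.04 and 0.01. Both comparisons share the 3 normal arrays, so they are not independent of each other.

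Without normal 3, 12 of the 40 genes fell in dysplasia against normal glands (30.0%) and 0 rose, where 11.4% of all genes fell and 12.7% rose. In adenocarcinoma against normal glands 13 fell (32.5%) and 0 rose, where 8.03% of all genes fell and 7.74% rose. The genes called in both were Hspa5, Hyou1, Dnajb9, Herpud1, Sel1l, Derl3, Sec61a1, Sec11c, Sec24d, Sar1b and Kdelr3. Ssr4 was called in dysplasia alone, and Syvn1 and Edem1 in adenocarcinoma alone, a contrast between the stages that was not itself significant for any of the 3 genes. The median log2 fold change without normal 3 was -0.43 in dysplasia and -0.62 in adenocarcinoma, against 0.06 and 0.03 for all genes. With array weights estimated in limma in place of leaving the array out, 26 genes fell and 2 rose in dysplasia (29.2% and 33.7% of all genes). In adenocarcinoma 24 fell and 0 rose (17.7% and 18.9% of all genes). The weights were 1.95, 5.1 and 0.16 for the normal arrays and 0.54, 6.62 and 0.36 for the dysplasia arrays. The weighted dysplasia mean thus rests mostly on 1 array, dysplasia 2. The calls given gene by gene below are those on all 9 arrays and without normal 3, not those with array weights. For 20 of the 40 genes (against 18.4% of all genes) normal 1 and normal 2 both lay above the other 7 arrays.

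**Figure D1:**
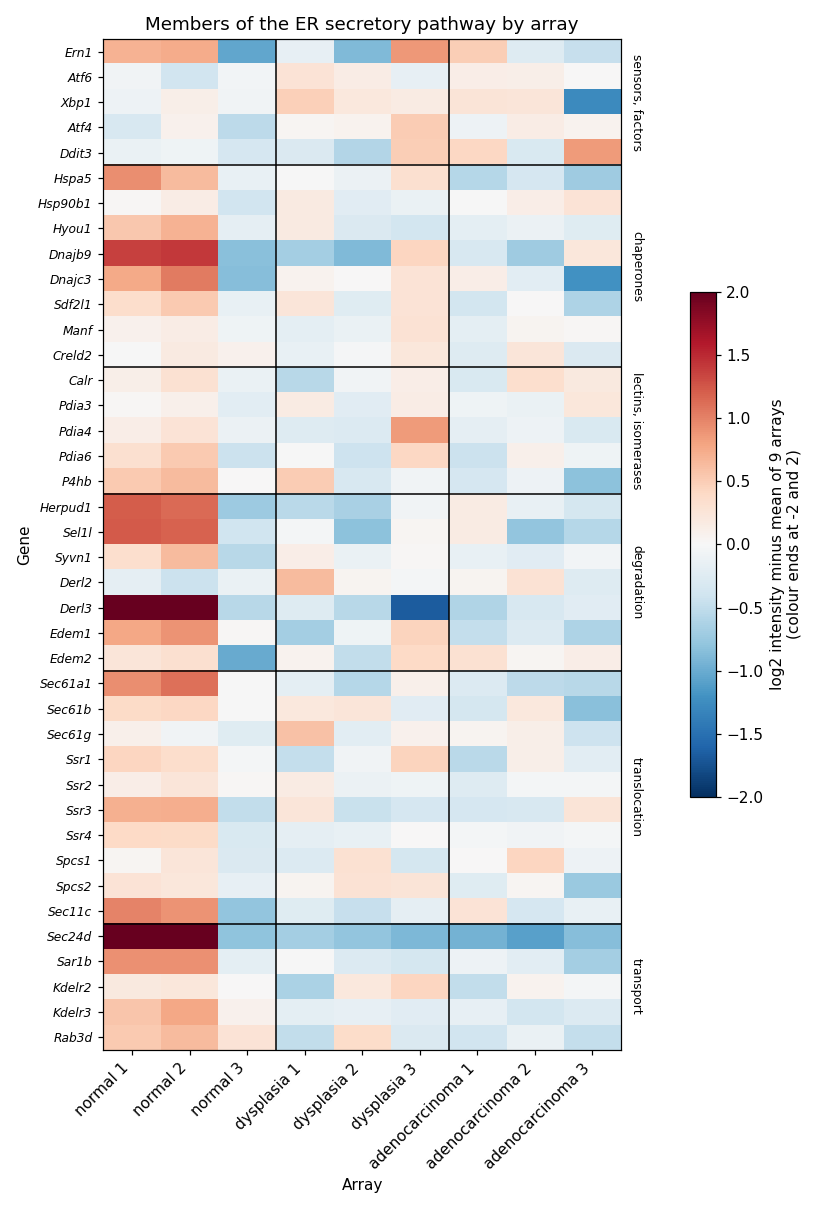
Log2 intensity of the 40 tested ER genes (rows, by role) on the 9 arrays (columns, by stage), as the difference from each gene's mean over the arrays, with colours ending at -2 and 2. The red cells gather in normal 1 and normal 2, and normal 3 resembles the dysplasia and adenocarcinoma columns, lying within their range for 29 of the 40 genes.

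The sensors and transcription factors of the response gave 0 calls among 5 genes in every comparison, on all 9 arrays and without normal 3. Without normal 3, 11.4% of all genes were called lower and 12.7% higher in dysplasia, and 8.03% and 7.74% in adenocarcinoma. Against such shares, 0 calls among 5 genes do not set the sensors apart. With array weights Ern1 was called lower in dysplasia, at -1.43 on the log2 scale (limma, adjusted p = 0.0019), and Atf6 higher, at 0.43 (adjusted p = 0.0065). That fit gave dysplasia 2 a weight of 6.62 and dysplasia 3, where Ern1 was highest of all 9 arrays, a weight of 0.36. Ern1, the IRE1 kinase and endonuclease that splices the Xbp1 transcript, had log2 intensities of 10.19, 10.25 and 8.46 on the normal arrays, 9.34, 8.62 and 10.37 on the dysplasia arrays and 10.0, 9.24 and 9.04 on the adenocarcinoma arrays. The groups overlapped, and the log2 fold change was -0.19 ± 0.59 (SE) in dysplasia and -0.21 ± 0.59 in adenocarcinoma, each against normal (limma, adjusted p = 0.87 and 0.88). Without normal 3 these values were -0.77 ± 0.51 and -0.79 ± 0.51 (adjusted p = 0.30 and 0.33). A second, dim Ern1 probe, between 6.16 and 6.60, went the other way in dysplasia, at 0.10 on all 9 arrays and 0.15 without normal 3. Xbp1, the factor that drives much of the ER expansion of secretory cells, read 13.86, 14.08 and 13.89 on the normal arrays, 14.44, 14.18 and 14.13 on the dysplasia arrays and 14.22, 14.21 and 12.69 on the adenocarcinoma arrays. All dysplasia arrays lay above all normal arrays, one of 2 ER genes (with Derl2) that did so, against 12.5% of all genes. In dysplasia the log2 fold change of Xbp1 was 0.31 ± 0.39, with an adjusted p of 0.66 in limma, and 0.28 ± 0.45 without normal 3. In adenocarcinoma it was -0.24 ± 0.39 against normal, and 0.27 without adenocarcinoma 3, the one array where Xbp1 was low.

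Atf4, the translationally controlled factor downstream of PERK, averaged 12.86 ± 0.26 in dysplasia and 12.39 ± 0.31 in normal glands (SD, n = 3 each), a log2 fold change of 0.47 ± 0.21 (SE) with an adjusted p of 0.24 in limma, and of 0.33 ± 0.22 without normal 3 (adjusted p = 0.31). Its target Ddit3, which encodes the pro-apoptotic factor CHOP, read 9.09, 8.37 and 9.54 in adenocarcinomas, against 8.55, 8.59 and 8.34 in normal glands. Those groups overlapped, and the log2 fold change was 0.51 ± 0.35 on all 9 arrays and 0.43 ± 0.41 without normal 3 (limma, adjusted p = 0.48 and 0.51). Atf6 lay close to background, between 6.11 and 6.77 over the 9 arrays. All adenocarcinoma arrays read above all normal arrays for it, as for 10.5% of all genes, but its 2 probes differed in direction in dysplasia and, without normal 3, also in adenocarcinoma.

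Of the 8 tested chaperones and co-chaperones, Hspa5, Hyou1 and Dnajb9 fell without normal 3 in both comparisons against normal glands. Of all genes, 11.4% fell in dysplasia and 8.03% in adenocarcinoma in that setting. Hspa5 encodes BiP, the main ER chaperone, and was measured by 1 probe near the lower end of the scale. It read 8.80, 8.50 and 7.72 on the normal arrays, 7.85, 7.75 and 8.18 on the dysplasia arrays and 7.29, 7.52 and 7.16 on the adenocarcinoma arrays. All adenocarcinoma arrays lay below all normal and all dysplasia arrays. The log2 fold change in adenocarcinoma against normal was -1.02 ± 0.28 on all 9 arrays (limma, adjusted p = 0.23) and -1.33 ± 0.21 without normal 3 (adjusted p = 0.0084). In dysplasia it was -0.41 ± 0.28 on all 9 arrays (adjusted p = 0.40) and -0.72 ± 0.21 without normal 3 (adjusted p = 0.042).

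Dnajb9, which encodes ERdj4, a BiP partner that also restrains IRE1, had a wider range. It read 12.25, 12.29 and 10.04 on the normal arrays, 10.19, 9.99 and 11.30 on the dysplasia arrays and 10.56, 10.16 and 11.10 on the adenocarcinoma arrays. Normal 1 and normal 2 stood alone above the other 7 arrays, and normal 3 was 4.68-fold below their mean. In dysplasia the log2 fold change was -1.03 ± 0.64 on all 9 arrays (adjusted p = 0.36) and -1.77 ± 0.43 without normal 3 (limma, adjusted p = 0.025). In adenocarcinoma it was -0.92 ± 0.64 on all 9 arrays (adjusted p = 0.48) and -1.66 ± 0.43 without normal 3 (adjusted p = 0.041). Hyou1, the large chaperone that exchanges nucleotide on BiP, gave log2 fold changes of -0.51 ± 0.26 in dysplasia and -0.54 ± 0.26 in adenocarcinoma on all 9 arrays (adjusted p = 0.28 and 0.34). With normal 3 left out they were -0.78 ± 0.20 and -0.80 ± 0.20 (adjusted p = 0.032 and 0.039).

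Dnajc3, the BiP co-chaperone also known as p58IPK, read 11.20, 10.86 and 9.85 in adenocarcinomas, against 11.82, 12.11 and 10.21 in normal glands. Those groups overlapped through normal 3, and the log2 fold change was -0.74 ± 0.52 on all 9 arrays (limma, adjusted p = 0.48) and -1.33 ± 0.37 without normal 3 (adjusted p = 0.054). Hsp90b1, the ER form of HSP90, differed little. It read 13.54, 13.67 and 13.14 on the normal arrays, 13.70, 13.30 and 13.38 on the dysplasia arrays and 13.51, 13.65 and 13.79 on the adenocarcinoma arrays, and all 3 groups overlapped. Its log2 fold change was 0.01 ± 0.20 in dysplasia and 0.20 ± 0.20 in adenocarcinoma against normal, and without normal 3 it was -0.14 ± 0.18 and 0.05 ± 0.18. Sdf2l1, a component of BiP complexes, gave -0.16 ± 0.25 and -0.57 ± 0.25 on all 9 arrays (adjusted p = 0.73 and 0.32). Creld2, a small calcium-binding ER protein, ranged over only 0.54 on the log2 scale across the 9 arrays, and Manf, a secreted ER stress protein, stayed between 6.18 and 6.66, at the background level.

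**Figure D2:**
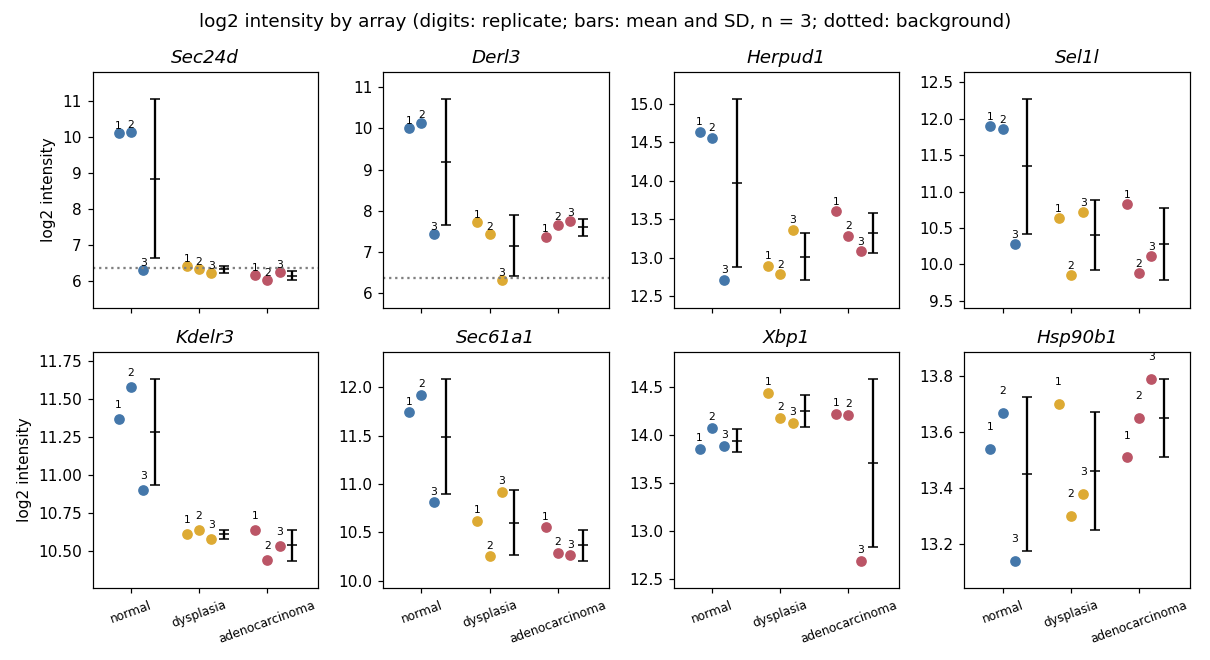
Log2 intensity of 8 ER genes on each array (points, numbered by replicate) for normal, dysplasia and adenocarcinoma, with the group mean and SD (bars, n = 3) and the background level of 6.37 (dotted line). For Sec24d, Derl3, Herpud1 and Sel1l normal 1 and normal 2 stand above the other 7 arrays, whereas Xbp1 and Hsp90b1 show no such gap.

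The lectin chaperones and disulfide isomerases gave 0 calls among 5 tested genes, with or without normal 3. Without it 11.4% of all genes fell and 12.7% rose in dysplasia, and 8.03% and 7.74% in adenocarcinoma. P4hb, protein disulfide isomerase itself, came nearest, at 13.97, 14.21 and 13.49 in adenocarcinomas, against 14.84, 14.94 and 14.32 in normal glands. The groups did not overlap, and the log2 fold change was -0.81 ± 0.29 on all 9 arrays (limma, adjusted p = 0.28) and -1.0 ± 0.30 without normal 3 (adjusted p = 0.065). Pdia3, the isomerase that acts on glycoproteins bound to calreticulin, ranged from 13.23 to 13.68 over the 9 arrays. Its log2 fold change was 0.06 ± 0.18 in dysplasia and 0.04 ± 0.18 in adenocarcinoma against normal, and Calr, calreticulin itself, had values of -0.26 ± 0.25 and -0.03 ± 0.25. Pdia4, a further isomerase, stood out on 1 array, dysplasia 3, at 11.87, where the other 8 arrays lay between 10.71 and 11.29. Pdia6, an isomerase that also acts on IRE1, gave -0.14 ± 0.31 in dysplasia and -0.27 ± 0.31 in adenocarcinoma on all 9 arrays. Without normal 3 it gave -0.42 ± 0.28 and -0.56 ± 0.28 (limma, adjusted p = 0.30 and 0.22). Its second, dimmer probe had mean differences of -0.69 and -0.62 on all 9 arrays, and of -1.02 and -0.95 without normal 3.

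ER-associated degradation held the largest differences outside transport. Of its 7 tested genes, Herpud1, Sel1l and Derl3 fell in dysplasia without normal 3, and these 3 with Syvn1 and Edem1 fell in adenocarcinoma. The shares of all genes that fell were 11.4% and 8.03%. Derl3, a derlin of secretory cells that retrotranslocates substrates, read 10.0, 10.13 and 7.43 on the normal arrays, 7.72, 7.43 and 6.31 on the dysplasia arrays and 7.37, 7.66 and 7.76 on the adenocarcinoma arrays. Normal 3 lay 6.21-fold below the mean of the other normal arrays and among the tumour-stage arrays, and dysplasia 3 was below background. The log2 fold change in dysplasia was -2.03 ± 0.70 on all 9 arrays (limma, adjusted p = 0.17) and -2.91 ± 0.39 without normal 3 (adjusted p = 0.0039). In adenocarcinoma it was -1.59 ± 0.70 on all 9 arrays (adjusted p = 0.32) and -2.47 ± 0.39 without normal 3 (adjusted p = 0.0091).

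Herpud1, a stress-induced scaffold of the degradation complex, read 14.64, 14.56 and 12.71 on the normal arrays, 12.89, 12.78 and 13.36 on the dysplasia arrays and 13.60, 13.28 and 13.08 on the adenocarcinoma arrays. Normal 3 was here the lowest of all 9 arrays. On all 9 arrays the log2 fold change was -0.96 ± 0.49 in dysplasia and -0.65 ± 0.49 in adenocarcinoma (adjusted p = 0.27 and 0.51). Without normal 3 these became -1.59 ± 0.23 and -1.28 ± 0.23 (limma, adjusted p = 0.0050 and 0.014), and the second Herpud1 probe gave -2.21 and -1.92.

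Sel1l, the adaptor of the HRD1 ubiquitin ligase, read 11.90, 11.86 and 10.28 on the normal arrays, 10.63, 9.85 and 10.72 on the dysplasia arrays and 10.83, 9.88 and 10.11 on the adenocarcinoma arrays. All 4 of its probes were lower in the tumour stages than in normal glands, with mean differences of -0.35 to -1.16 over both comparisons on all 9 arrays. For the brightest probe the log2 fold change was -0.95 ± 0.48 in dysplasia and -1.08 ± 0.48 in adenocarcinoma (limma, adjusted p = 0.27 and 0.32), and -1.48 ± 0.36 and -1.61 ± 0.36 without normal 3 (adjusted p = 0.025 in both). The ligase itself, Syvn1, averaged 12.47 ± 0.09 in adenocarcinomas and 12.75 ± 0.62 in normal glands (SD, n = 3 each), and with normal 3 left out its log2 fold change was -0.63 ± 0.17 (adjusted p = 0.045). Edem1, a mannosidase-like factor that hands glycoproteins to degradation, read 7.29, 7.49 and 7.14 in adenocarcinomas, against 8.53, 8.66 and 7.79 in normal glands, without overlap. Its log2 fold change was -1.02 ± 0.33 on all 9 arrays (adjusted p = 0.26) and -1.29 ± 0.31 without normal 3 (limma, adjusted p = 0.034).

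Derl2 and Edem2, paralogs of Derl3 and Edem1, had no call. Derl2 read 10.60, 10.02 and 9.92 in dysplasia, against 9.78, 9.53 and 9.82 in normal glands, without overlap, and its log2 fold change was 0.47 ± 0.23 on all 9 arrays and 0.53 ± 0.26 without normal 3 (limma, adjusted p = 0.26 and 0.19). For Edem2 the direction on all 9 arrays depended on the probe. Its brightest probe gave log2 fold changes of 0.14 ± 0.38 in dysplasia and 0.30 ± 0.38 in adenocarcinoma against normal, while its other 3 probes were lower in both stages, with mean differences of -0.42 to -0.95. Without normal 3 the brightest probe was also below 0, at -0.29 ± 0.26 and -0.13 ± 0.26 (adjusted p = 0.45 and 0.77), and all 4 probes had 1 direction.

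The translocon and its partners had 10 tested genes. Sec61a1, the channel subunit through which nascent chains enter the ER, read 11.74, 11.92 and 10.81 on the normal arrays, 10.62, 10.25 and 10.92 on the dysplasia arrays and 10.55, 10.29 and 10.26 on the adenocarcinoma arrays. All adenocarcinoma arrays lay below all normal arrays, whereas dysplasia 3 lay above normal 3. The log2 fold change in adenocarcinoma was -1.12 ± 0.31 on all 9 arrays (limma, adjusted p = 0.23) and -1.46 ± 0.23 without normal 3 (adjusted p = 0.0082), and in dysplasia -0.89 ± 0.31 (adjusted p = 0.17) and -1.23 ± 0.23 (adjusted p = 0.010). A second, dim Sec61a1 probe, between 6.43 and 6.78, gave differences of -0.12 in dysplasia and -0.03 in adenocarcinoma. The smaller channel subunits Sec61b and Sec61g had no call, and the groups overlapped for Sec61g at 13.60, 13.66 and 13.13 in adenocarcinomas, against 13.64, 13.47 and 13.30 in normal glands.

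Sec11c, a catalytic subunit of signal peptidase, read 13.15, 13.07 and 11.38 on the normal arrays, 11.92, 11.71 and 11.98 on the dysplasia arrays and 12.44, 11.83 and 12.01 on the adenocarcinoma arrays. Normal 3 was again the lowest array. On all 9 arrays the log2 fold change was -0.66 ± 0.45 in dysplasia and -0.44 ± 0.45 in adenocarcinoma (adjusted p = 0.39 and 0.64). Without that array Sec11c fell in both, at -1.24 ± 0.21 in dysplasia and -1.02 ± 0.21 in adenocarcinoma (limma, adjusted p = 0.0082 and 0.021). The accessory signal peptidase subunits Spcs1 and Spcs2 had no call, with values of 0.12 ± 0.25 and -0.42 ± 0.23 in adenocarcinoma against normal on all 9 arrays. Of the translocon-associated proteins, which assist translocation of some precursors, Ssr4 fell in dysplasia with normal 3 left out, at -0.50 ± 0.14 (adjusted p = 0.042), against -0.27 ± 0.21 on all 9 arrays. Ssr1, Ssr2 and Ssr3 had no call, with log2 fold changes of -0.28 ± 0.28, -0.15 ± 0.15 and -0.49 ± 0.37 in dysplasia on all 9 arrays.

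The transport genes included the largest difference of the group. Sec24d, a cargo-binding subunit of the COPII coat, read 10.11, 10.15 and 6.29 on the normal arrays, 6.42, 6.32 and 6.21 on the dysplasia arrays and 6.16, 6.01 and 6.25 on the adenocarcinoma arrays. Only normal 1, normal 2 and dysplasia 1 were above background, and Sec24d passed the filter through these 3 arrays alone. The alternative filter, which asked for all 3 arrays of a group above background, left Sec24d out. Adenocarcinomas were at least 5.56-fold lower than normal glands on all 9 arrays (limma, adjusted p = 0.26) and at least 13.5-fold lower without normal 3 (adjusted p = 0.00013). Dysplastic glands, whose mean of 6.32 was also below background with 2 of 3 arrays under it, were at least 5.5-fold lower than normal glands on all 9 arrays (adjusted p = 0.18) and at least 13.4-fold lower without normal 3 (adjusted p = 0.00018). These bounds take each dysplasia or adenocarcinoma array below background at the background level. Normal 3, also below background, entered the mean of all 3 normal arrays at its own value of 6.29. A second Sec24d probe exceeded background on normal 1 and normal 2 alone, at 6.40 and 6.71, and was not tested.

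Kdelr3, a receptor that returns escaped ER proteins from the Golgi, had the lowest unadjusted p of the 40 genes on all 9 arrays in both comparisons against normal glands, whereas without normal 3 Sec24d had the lowest. It read 11.37, 11.58 and 10.90 on the normal arrays, 10.61, 10.64 and 10.58 on the dysplasia arrays and 10.64, 10.44 and 10.53 on the adenocarcinoma arrays. It was the one ER gene whose dysplasia arrays all lay below all normal arrays, normal 3 included, as for 10.5% of all genes. The log2 fold change was -0.68 ± 0.19 in dysplasia (limma, adjusted p = 0.16) and -0.75 ± 0.19 in adenocarcinoma (adjusted p = 0.23). Without normal 3 the values were -0.87 ± 0.15 and -0.94 ± 0.15 (adjusted p = 0.0084 and 0.0091).

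Sar1b, the small GTPase that starts COPII assembly, gave log2 fold changes of -0.76 ± 0.32 in dysplasia and -0.88 ± 0.32 in adenocarcinoma on all 9 arrays (limma, adjusted p = 0.21 and 0.28). It fell in both when normal 3 was left out, at -1.13 ± 0.21 and -1.25 ± 0.21 (adjusted p = 0.011 in both). Rab3d, a GTPase of zymogen and other secretory granules, read 12.10, 12.36 and 12.01 in adenocarcinomas, against 13.01, 13.13 and 12.76 in normal glands. The groups did not overlap, and with all 9 arrays its log2 fold change of -0.81 ± 0.24 (limma, adjusted p = 0.24) was close to that without normal 3, -0.91 ± 0.27 (adjusted p = 0.061). Kdelr2, the other tested receptor of retrieval, had log2 fold changes of -0.14 ± 0.29 in dysplasia and -0.30 ± 0.29 in adenocarcinoma. In adenocarcinoma 8 of the 40 genes lay wholly below normal glands on all 9 arrays (Hspa5, P4hb, Edem1, Sec61a1, Ssr2, Sec24d, Kdelr3 and Rab3d), against 9.72% of all genes.

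**Figure D3:**
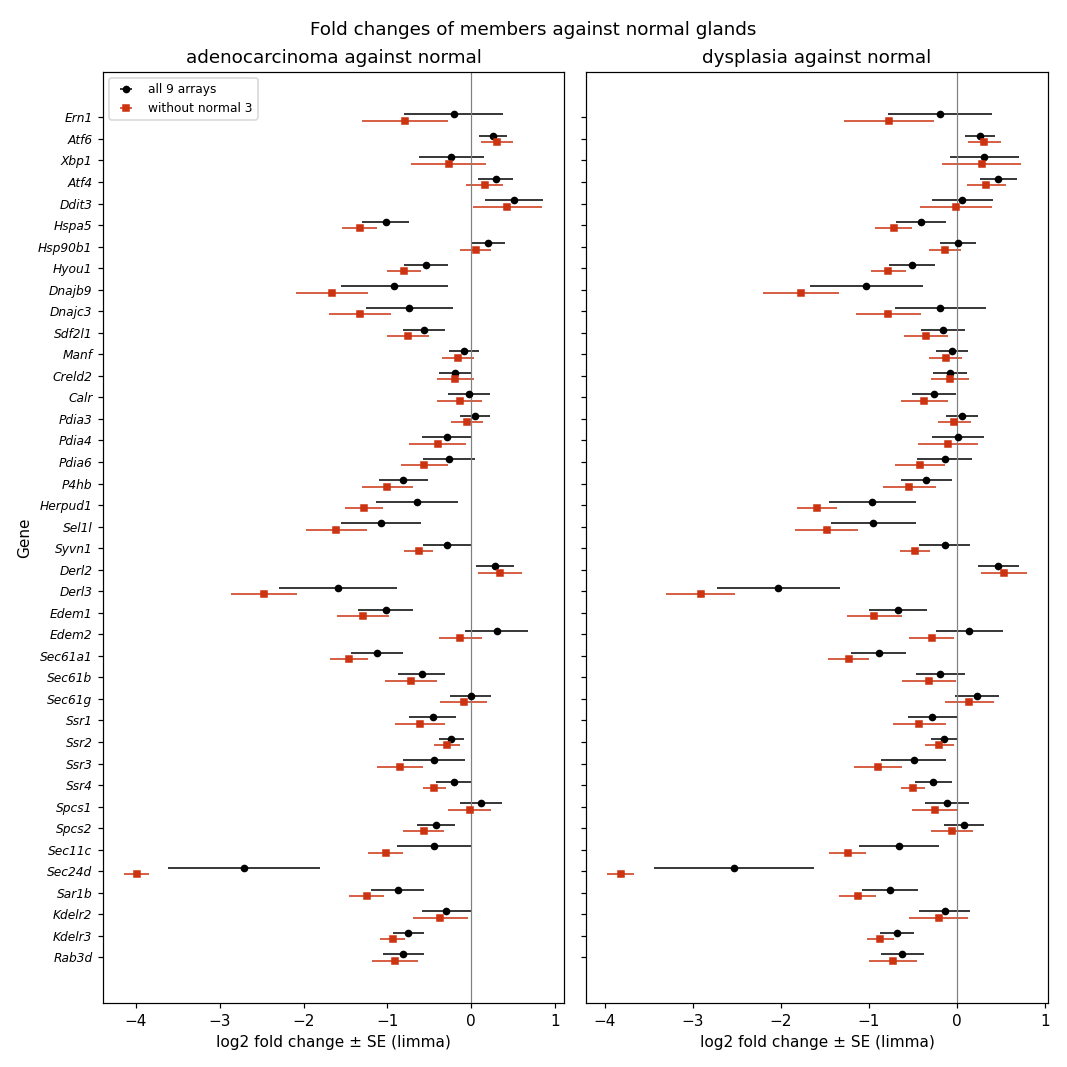
Log2 fold changes with SE (limma) of the 40 ER genes in adenocarcinoma (left) and dysplasia (right), each against normal glands, on all 9 arrays (black circles) and without normal 3 (red squares). The points of Sec24d are fitted values, and the text gives its differences as lower bounds. Most points lie below 0 in both panels, and leaving out normal 3 moves the median in adenocarcinoma to -0.62, against -0.36 on all 9 arrays.

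The genes holding the elements shown above differed among themselves in their changes. Of the 9 genes with ERSE, 8 were tested. Without normal 3 their log2 fold changes ran from -2.91 (Derl3) to -0.08 (Creld2) in dysplasia and from -2.47 (Derl3) to 0.05 (Hsp90b1) in adenocarcinoma. The calls among them, all lower, numbered 2 of 8 in dysplasia (Hspa5 and Derl3) and 3 of 8 in adenocarcinoma (also Syvn1). Of all genes tested, 11.4% and 8.03% were called lower in these comparisons. The 25 tested genes with a window and no ERSE gave 7 calls in each comparison, and the medians were -0.45 and -0.60 for the 8 genes with ERSE, against -0.43 and -0.72 for these 25. Both genes with UPRE, Sec24d and Kdelr3, and the one tested gene with ERSE-II, Herpud1, were called in both comparisons. These are few genes, Sec24d was near background outside normal 1 and normal 2, and a link between an element and the changes was not tested.

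Adenocarcinoma and dysplasia were compared directly to ask whether the genes moved further between the stages. On all 9 arrays 0 of the 40 ER genes passed an adjusted p of 0.05 in limma, as did 0.0% of all genes, and 0 reached an unadjusted p under 0.05, against 2.05% of all genes higher and 2.19% lower. The median log2 fold change was -0.12, against -0.05 for all genes. Hspa5 read 7.29, 7.52 and 7.16 in adenocarcinomas, against 7.85, 7.75 and 8.18 in dysplasia, and the fitted difference was -0.60 ± 0.28 on the log2 scale (limma, adjusted p = 0.88). Spcs2, the accessory signal peptidase subunit, read 7.02, 7.30 and 6.52 in adenocarcinomas, against 7.31, 7.54 and 7.52 in dysplasia, and the fitted difference was -0.51 ± 0.23 on the log2 scale (limma, adjusted p = 0.88). These were the 2 genes whose adenocarcinoma arrays all lay below the dysplasia arrays, against 6.53% of all genes, and for 0 genes they all lay above, against 4.01% of all genes. For the remaining genes the log2 fold changes ran from -0.55 to 0.45.

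A further 126 genes of the same pathways were listed, and 111 were tested. On all 9 arrays 0 of them passed in any comparison. Without normal 3, 26 fell and 4 rose in dysplasia against normal glands, and 28 fell and 1 rose in adenocarcinoma, with medians of -0.29 and -0.43, against 0.06 and 0.03 for all genes. Of the 111 genes, 23.4% thus fell and 3.6% rose in dysplasia, where 11.4% of all genes fell and 12.7% rose, and 25.2% fell and 0.901% rose in adenocarcinoma, where 8.03% fell and 7.74% rose. Rab1b, Os9 and Fkbp2 had the lowest p on the low side in dysplasia on all 9 arrays, and for Rab1b and Fkbp2 normal 3 read close to the other normal arrays. Rab1b, a GTPase of ER to Golgi traffic, read 9.68, 9.88 and 9.54 in dysplasia, against 10.54, 10.61 and 10.50 in normal glands, a log2 fold change of -0.85 ± 0.16 (limma, adjusted p = 0.14) that without normal 3 was -0.87 ± 0.17 (adjusted p = 0.013). Fkbp2, an ER prolyl isomerase, gave -0.61 ± 0.15 in dysplasia both with normal 3 (adjusted p = 0.15) and, at -0.61 ± 0.16, without it (adjusted p = 0.033). Os9, a lectin of ER-associated degradation, gave -1.11 ± 0.23 on all 9 arrays (adjusted p = 0.14) and -1.36 ± 0.16 without normal 3 (adjusted p = 0.0028), and its value on normal 3, 11.47, lay within the adenocarcinoma values of 11.34 to 11.54.

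In dysplasia against normal glands 37 of the 111 genes had a log2 fold change above 0 on all 9 arrays, against 6708 of all 12423 genes. Among these 37 the 3 with the lowest p were Erp29, Copb1 and Trib3. Erp29, a folding factor for secretory proteins, read 13.66, 13.91 and 13.69 in dysplasia, against 12.65, 12.77 and 13.02 in normal glands, a log2 fold change of 0.94 ± 0.21 (limma, adjusted p = 0.15). It gave 0.63 ± 0.21 in adenocarcinoma (adjusted p = 0.26), and 1.04 ± 0.22 in dysplasia without normal 3 (adjusted p = 0.016). Copb1, a subunit of the COPI coat, and Trib3, a target of ATF4 and CHOP, gave 0.69 ± 0.20 and 1.46 ± 0.44 in dysplasia (adjusted p = 0.16 for both), and 0.86 ± 0.19 and 1.74 ± 0.46 without normal 3 (adjusted p = 0.017 and 0.033). Atf3, a further stress factor, read 8.67, 8.04 and 8.19 in adenocarcinomas, against 7.17, 6.69 and 7.49 in normal glands, and rose without normal 3 by 1.37 ± 0.28 (adjusted p = 0.019). In adenocarcinoma the lowest values of p on the low side belonged to Sec31a, of the outer COPII coat, Cnpy3, a chaperone of Toll-like receptors, and Rab1b, at -1.05 ± 0.26, -0.96 ± 0.24 and -0.61 ± 0.16 (adjusted p = 0.23 for each). All 3 fell without normal 3, at -1.34 ± 0.17, -1.15 ± 0.23 and -0.63 ± 0.17 (adjusted p = 0.0048, 0.017 and 0.048). Between adenocarcinoma and dysplasia Os9, Ppic and Dad1 had the lowest p among positive values (0.56, 1.68 and 0.64), and Stx3, Spcs3 and Sec13 among negative ones (-0.82, -0.66 and -0.42), with an adjusted p of 0.88 for each.

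**Figure D4:**
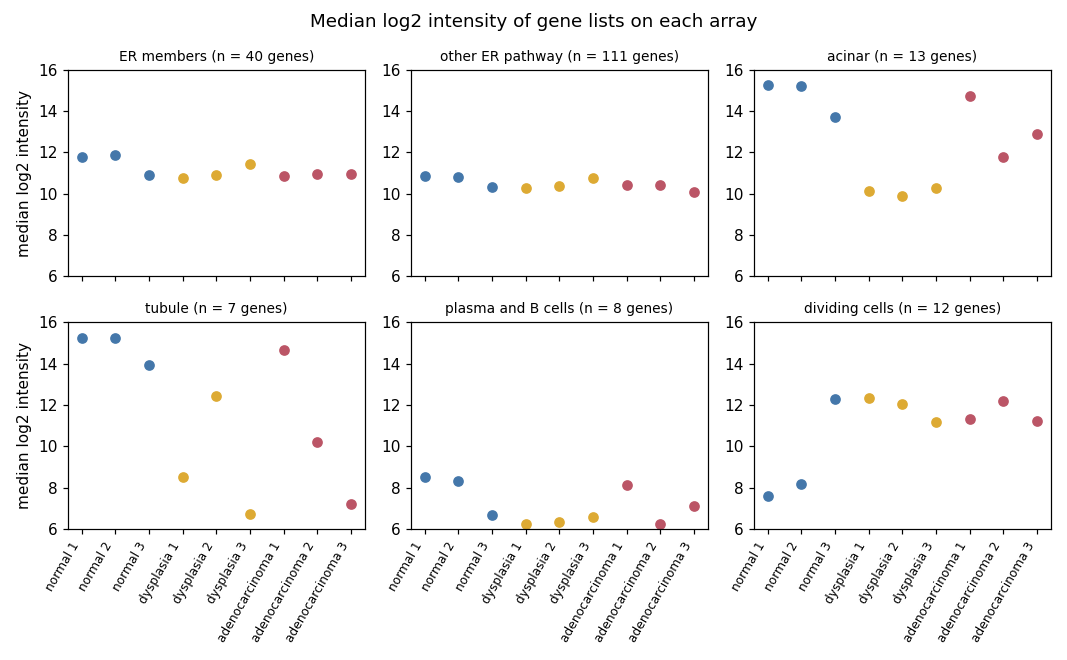
Median log2 intensity on each array for the 40 ER genes, the 111 other pathway genes and 4 marker lists, with arrays along the horizontal axis by stage. The ER genes span 10.77 to 11.89, whereas genes of dividing cells stand at 7.60 and 8.20 on normal 1 and normal 2 and between 11.17 and 12.35 on the other 7 arrays.

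Several lists of cell type markers differed between the same arrays as the ER genes, some lower and some higher, and their part in the results was not tested. The 40 ER genes had medians of 11.78, 11.89 and 10.90 on the normal arrays, 10.77, 10.91 and 11.45 on the dysplasia arrays and 10.88, 10.94 and 10.95 on the adenocarcinoma arrays. In whole glands, fewer secretory cells and less RNA of these genes per cell cannot be told apart. The granular tubule genes, 7 of 12 tested, had medians of 15.23, 15.23 and 13.94 on the normal arrays, 8.53, 12.42 and 6.72 on the dysplasia arrays and 14.68, 10.24 and 7.24 on the adenocarcinoma arrays. Adenocarcinoma 1 had acinar and tubule medians of 14.75 and 14.68, near those of the normal arrays, while its ER median of 10.88 was near that of the other adenocarcinomas. Dysplasia 3 had the lowest tubule median of the 9 arrays and the highest ER median of the 6 dysplasia and adenocarcinoma arrays. Adipocyte genes, 6 of 8 tested, had medians of 11.54, 10.49 and 7.23 on the normal arrays, 6.18, 6.82 and 6.43 on the dysplasia arrays and 9.53, 6.13 and 7.0 on the adenocarcinoma arrays. Normal 1 and normal 2 lay above the other 7 arrays for all 6 adipocyte genes, all 4 tested T cell genes and all 7 tubule genes. The share of all genes was 18.4%. The same held for 6 of 8 plasma and B cell genes, 6 of 13 acinar, 5 of 10 duct and 4 of 7 basal and myoepithelial genes. It held for 0 of 9 macrophage genes and 0 of 12 genes of dividing cells. Without normal 3, 11.4% of all genes fell in dysplasia and 8.03% in adenocarcinoma. Of the 13 acinar genes 5 fell in dysplasia and 1 in adenocarcinoma, and of the 7 tubule genes 2 and 0. Of the 6 adipocyte genes 6 fell in dysplasia and 4 in adenocarcinoma, and 4 and 2 of the 4 T cell genes did so. Duct genes gave 5 lower calls among 10 in each comparison, and basal and myoepithelial genes 4 among 7 in dysplasia and 1 in adenocarcinoma.

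Plasma and B cell genes, 8 of 11 tested, had summed intensities of 916 to 1340 in dysplasia, 1146 to 2680 in adenocarcinoma and 1281 to 6482 in normal glands. Of these genes, 1 was above background on every array. Mzb1, an ER protein of plasma cells, read 10.26, 10.90 and 7.94 on the normal arrays, 6.28, 6.53 and 7.18 on the dysplasia arrays and 9.79, 6.29 and 7.75 on the adenocarcinoma arrays. Sdc1, the plasma cell surface marker that epithelial cells also carry, went the other way, at 6.68, 7.0 and 8.84 on the normal arrays, 8.97, 8.47 and 9.29 on the dysplasia arrays and 8.64, 9.25 and 7.92 on the adenocarcinoma arrays. Without normal 3 the list gave 5 lower calls in dysplasia and 3 in adenocarcinoma, with Sdc1 the 1 higher call in each. Of all genes, 11.4% and 8.03% were called lower in these comparisons and 12.7% and 7.74% higher. Macrophage genes gave 0 calls among 9 in dysplasia and 1 higher call in adenocarcinoma without normal 3. Genes of dividing cells, 12 of 15 tested and all above background on every array, had summed intensities of 32323 to 62732 in dysplasia, 34854 to 59177 in adenocarcinoma and 3318 to 55644 in normal glands. Normal 3 gave the high end of that last range. Without it 12 of the 12 rose in dysplasia and 11 in adenocarcinoma, against 12.7% and 7.74% of all genes. Acinar genes summed to 109166 to 121074 in dysplasia, 102336 to 298959 in adenocarcinoma and 203455 to 374929 in normal glands.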

How the data were processed

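Total RNA labelled with biotin had been hybridised to 9 Illumina arrays, 3 per stage, per the labels. The authors deposited linear intensity values that they had quantile-normalized across arrays (sorted columns differ by at most 0.099%), and the submitters' processing notes name limma. Background correction is not given in the sources used here, and the lowest intensity was 42.4. A second deposited table has 18 columns whose names match no label, and it was not used. Of 45281 probes, 34885 carried 1 gene symbol in the platform annotation, 18 several and 10378 none; 34807 Entrez identifiers matched RefSeq (GRCm38.p6) and 0 symbols changed.

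Deposited intensities were analysed on the log2 scale. The background level, 83.0 (6.37 in log2), was the mode of all values plus the 95th percentile of the spread below it. Probes above it on at least 3 arrays were kept, with the brightest probe for each gene. Each comparison came from 1 fit in limma 3.58.1 (R 4.3.3) of the 3 group means on all 9 arrays, with Benjamini-Hochberg adjustment over all 12423 genes. SE is the moderated standard error, and called means an adjusted p under 0.05. The smallest two-sided p that permuting 3 arrays against 3 allows is 0.1, so no exact test was used. Where a group lay below background, the fold is a lower bound against background. The comparison of dysplasia with normal was tested on simulated data of 12423 genes with 200 changed: 28.4%, 74.6% and 95.5% of log2 changes of 1, 2 and 4 were recovered, with 8 false calls. The simulated noise was drawn independently for each gene, so no array departed from its group across many genes, as normal 3 does. These rates therefore check the fit and do not give its power in the real data.

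The members, the lists and the emphasis on normal 3 were chosen with earlier results of these data known. Every member could be named, and of the other pathway genes the 3 with the lowest p in each direction per comparison. The group was not tested as a set. The labels do not say whether replicate numbers pair the arrays, and the main fit did not treat them as pairs. Deviations of same-numbered arrays from their group means correlated at -0.46 to 0.24. With 3 arrays per group such values cannot exclude pairing. Alternatives were other offsets, filters, probe rules, scalings and designs, array weights and leaving out each array. Figures were drawn with matplotlib 3.10.9.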

Additional observations from a re-analysis of the deposited data

How the results depend on the processing

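The count of ER genes called was 0 on all 9 arrays in each comparison and stayed 0 in 16 of 18 alternatives for dysplasia against normal, 16 of 18 for adenocarcinoma against normal and 18 of 18 for adenocarcinoma against dysplasia. Leaving out 1 array at a time gave 0 to 12, 0 to 13 and 0 to 0 calls, with normal 3 the array that gave the calls. Array weights, which limma estimates from the same data and which gave normal 3 a weight of 0.16, gave 28 and 24 calls against normal glands. With them 29.2% and 17.7% of all genes were called lower and 33.7% and 18.9% higher. In dysplasia these calls rest mostly on dysplasia 2, with a weight of 6.62, against 0.54 and 0.36 for dysplasia 1 and dysplasia 3. Why normal 3 departs from its group was not tested. The medians kept their sign throughout, at -0.43 to -0.10, -0.62 to -0.23 and -0.15 to -0.03 when 1 array was left out and at -0.58 to -0.18, -0.68 to -0.34 and -0.15 to -0.01 otherwise. Under array weights 3 genes that had been slightly above 0 in dysplasia were called lower: Hsp90b1 (-0.29), Pdia4 (-0.45) and Edem2 (-0.67). A fit with the replicate number as a block gave 0 calls and medians of -0.19, -0.36 and -0.12. The sign turned in at least 1 alternative for 16, 8 and 19 of the 40 genes, whose log2 fold changes on all 9 arrays were at most 0.23, 0.30 and 0.30 in size. Of 18 genes with more than 1 tested probe, 13 had 1 direction in dysplasia over all probes and 16 in adenocarcinoma. For genes close to background, such as Atf6, Manf and Sec24d outside normal 1 and normal 2, the arrays may understate a difference. The small values of Atf6 and Manf may also be noise.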
